A study of Mus musculus with 8 samples.

Results

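Arntl (also called Bmal1), Clock and Npas2 encode the activating subunits of the circadian clock. Their transcripts were counted in single nuclei of mouse kidney, as 3 of 32285 genes, of which 21286 are protein-coding and were tested together. The rule that picked them was their names. The study compared 8 male mice on the C57BL/6J background, 1 mouse per library and 2 libraries for each combination of genotype and time of day. All mice carried Bmal1 alleles flanked by lox sites, and all drank doxycycline at 2 mg/ml with sucrose at 20 mg/ml for 2 weeks from 8 weeks of age. Mice with these alleles alone were the controls (Ctrl), and littermates that also carried the Pax8-rtTA and LC-1 transgenes formed the group named cKOt. In those mice the Pax8 promoter drives the doxycycline-dependent activator in renal tubular cells, and LC-1 supplies the Cre recombinase, so that Bmal1 is inactivated in the tubule and not by design in vessels, stroma or immune cells. Kidneys were taken at 14 weeks, at ZT4, which is 4 h after lights on, or at ZT16, in the dark phase. The 2 libraries of a group differed from each other by more than sampling noise, and p-values measure the spread between these mice.

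The product of Arntl pairs with that of Clock or of Npas2, a close relative of Clock, and the pair binds E-box sequences at the Per, Cry, Nr1d1, Nr1d2 and Dbp genes. The PER and CRY proteins inhibit the pair that induced them. The products of Nr1d1 and Nr1d2 are nuclear receptors that repress Arntl and Npas2. In mouse kidney, as in other peripheral organs, Arntl and Npas2 transcripts cycle with a trough in the light phase, and Clock cycles weakly.

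After removal of low-quality barcodes, 81391 of 82784 deposited barcodes remained, with 36548873 to 54500820 UMIs per library and median UMIs per nucleus between 3003.5 and 4830. Nuclei fell into 40 clusters, of which 33 were named by marker genes, covering 77271 nuclei, and 33 genes of the clock and of the bHLH-PAS family, Arntl, Clock and Npas2 among them, were kept out of the clustering. Of these nuclei, 51168 belonged to tubule classes and 24690 to vascular, stromal and immune classes. In all, 20 classes had at least 10 nuclei in every library and were compared. A cluster led by markers of both late distal and connecting tubule is called cluster 11, since its leading genes went against a single name. Libraries shared few barcodes, at most 43 for a pair.

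Because Arntl and Npas2 moved together in the results that follow, the 100 bases before their starts are printed, taken from RefSeq on build GRCm38.p6. The Arntl line is chr7:113207365-113207464 on the plus strand and ends before the first of 2 listed starts. Its capitals mark ATTGGTGGGCGGGG, the longest run of letters found more than once in the Arntl window, a rule chosen after these sequences had been seen. The run joins ATTGG, the letters of a CCAAT box read on the opposite strand, to GGGCGG, which proteins of the Sp1 family can bind. The Npas2 line is chr1:39194172-39194271 on the plus strand and ends before its only listed start, and its capitals mark GGGCGG on the opposite strand.
Arntl upstream: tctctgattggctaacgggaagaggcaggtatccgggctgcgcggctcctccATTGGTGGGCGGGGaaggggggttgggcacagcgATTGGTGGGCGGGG
Npas2 upstream: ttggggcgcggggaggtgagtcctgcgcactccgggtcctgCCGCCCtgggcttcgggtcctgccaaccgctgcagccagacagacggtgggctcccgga
On either strand, ATTGGTGGGCGGGG occurred in 3 of 32851 promoter windows (0.00913%) over 27025 genes, each window holding the 250 bases before a start and 50 from it on, and 2 of the 3 were the overlapping windows of Arntl. GGGCGG, which it contains, was in 35.7% of windows, among them those of 2 of 3 Clock starts.

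A stretch just after the second Arntl start, chr7:113207533-113207552 on the plus strand, is shown because its capitals are AGGTCA, the core that NR1D receptors are known to bind. They begin 32 bases into the transcript, with the start counted as 1.
Arntl after the second start: gcagaaagtAGGTCAgggac
AGGTCA on either strand was in 16.3% of windows, among them that of 1 of 3 Clock starts and not that of Npas2. The E-box CACGTG was in 7.15% of all windows and in none of those of Arntl, Clock and Npas2. These matches describe letters in a window and were not related to binding.

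In all nuclei of a library, Arntl and Npas2 rose from ZT4 to ZT16 in Ctrl mice, and both were highest in cKOt mice, at either time. Clock did not pass the test in any comparison. Levels are given in CPM, the UMIs of a gene scaled to the TMM-adjusted total of protein-coding genes, and are compared within a gene only. Changes are log2 fold changes from edgeR's quasi-likelihood test with their standard error (SE), and p-values were adjusted by Benjamini-Hochberg over all genes tested, with a limit of 0.05.

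Arntl (ENSMUSG00000055116, chr7:112806152-112914735 on build GRCm39, plus strand) is the targeted gene. In Ctrl mice it had 38.2 and 33.1 CPM at ZT4, then 154 and 159 CPM at ZT16, and in cKOt mice 295 and 201 CPM at ZT4, then 296 and 267 CPM at ZT16. Every cKOt library thus lay above every Ctrl library. A UMI was assigned to Arntl wherever it lay on the transcript, so that UMIs outside the deleted part check nothing about the deletion. In Ctrl, Arntl was 4.38-fold higher at ZT16 than at ZT4 (log2 2.13, SE 0.19, adjusted p = 0.00376, edgeR), a call made for 0.141% of the 16351 genes tested. Without Ctrl ZT4 replicate 2 the change was 2.03 and the adjusted p 0.0665. At ZT4 Arntl was 6.96-fold higher in cKOt than in Ctrl (log2 2.80, SE 0.19, adjusted p = 0.000501, edgeR), where 0.44% of genes were called. At ZT16 the difference was 0.84 on the log2 scale (SE 0.18, adjusted p = 0.175, edgeR), which missed the limit although the groups did not overlap, in a comparison in which 0.171% of genes were called.

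Npas2 (ENSMUSG00000026077, chr1:39232705-39402323 on build GRCm39, plus strand), the alternative partner of ARNTL, showed the wider range. It had 25.1 and 33.0 CPM in Ctrl at ZT4, 125 and 125 CPM in Ctrl at ZT16, 494 and 419 CPM in cKOt at ZT4, with 473 and 447 CPM in cKOt at ZT16. The 4 cKOt libraries were close to each other and stood above all Ctrl libraries. Npas2 rose 4.29-fold from ZT4 to ZT16 in Ctrl (log2 2.10, SE 0.16, adjusted p = 0.00179, edgeR). It was 15.7-fold higher in cKOt than in Ctrl at ZT4 (log2 3.97, SE 0.17, adjusted p = 6.01e-05, edgeR) and 3.67-fold higher at ZT16 (log2 1.88, SE 0.15, adjusted p = 0.00259, edgeR). These comparisons share Ctrl libraries, so their sizes are not independent of each other.

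Clock (ENSMUSG00000029238, chr5:76342860-76452846 on build GRCm39, minus strand), the usual partner of ARNTL, varied little. It overlaps 5 annotated genes, Tmem165 on the opposite strand among them, while Arntl overlaps 3 and Npas2 4, none of them protein-coding. Of these, 3 lie on the opposite strand of each gene, and where counting did not use strand their reads cannot be told apart. It had 163 and 157 CPM in Ctrl at ZT4, 197 and 217 CPM in Ctrl at ZT16, 232 and 197 CPM in cKOt at ZT4, with 232 and 230 CPM in cKOt at ZT16. Only the Ctrl ZT4 libraries lay apart from the rest. The log2 change was 0.37 (SE 0.12, adjusted p = 0.356) from ZT4 to ZT16 in Ctrl, 0.42 (SE 0.12, adjusted p = 0.257) for cKOt against Ctrl at ZT4 and 0.16 (SE 0.12, adjusted p = 0.999) at ZT16, all by edgeR.

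**Figure D1:**
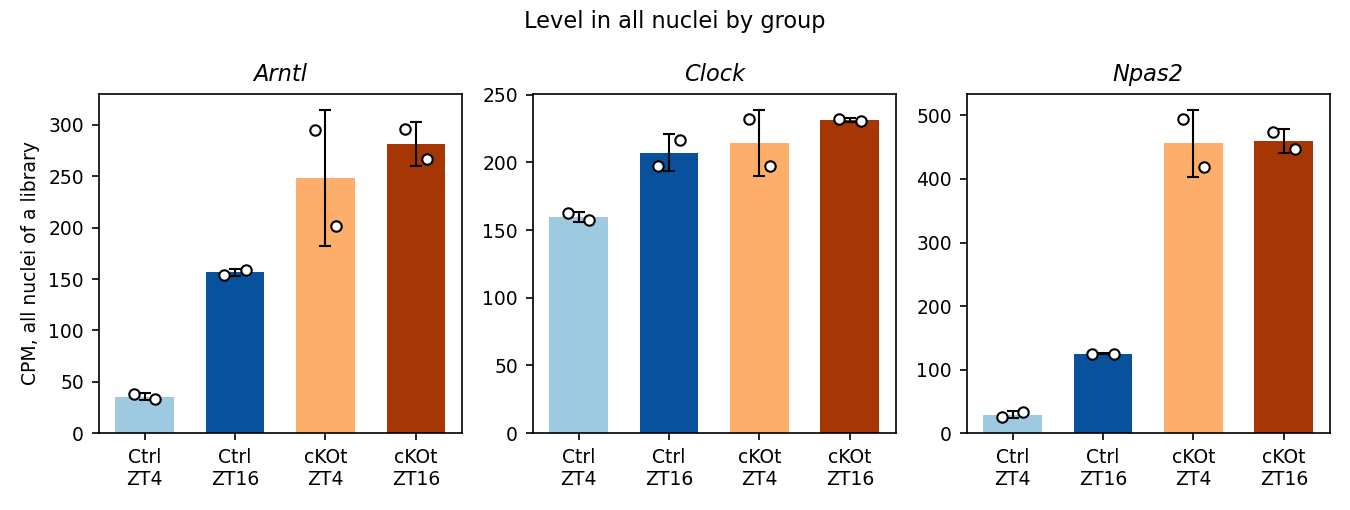
Levels of Arntl, Clock and Npas2 in all nuclei, in CPM, by genotype and time point. Bars are means of the 2 libraries of a group, error bars their SD and circles the libraries; Arntl and Npas2 stand lowest in Ctrl at ZT4 and highest in cKOt, and the Clock bars lie between 160 and 231 CPM.

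The time of day was followed within cKOt as well. From ZT4 to ZT16 the log2 change there was 0.18 for Arntl (SE 0.18, adjusted p = 0.883), 0.10 for Clock (SE 0.12, adjusted p = 0.905) and 0.01 for Npas2 (SE 0.15, adjusted p = 0.996), all by edgeR. For any of the 16351 genes edgeR made 0 calls here (0%), while 1351 had an unadjusted p under 0.05 and DESeq2 called 166. Whether the time effect differed between genotypes was tested directly, as the change in cKOt minus that in Ctrl. For Npas2 this was −2.09 (SE 0.21, adjusted p = 0.0436, edgeR), in a comparison that called 0.0183% of genes. The call was lost in each of the 8 fits that left out 1 library, with adjusted p from 0.062 to 0.217, while the value kept to between −2.31 and −1.92. For Arntl the difference was −1.95 (SE 0.26, adjusted p = 0.0896, edgeR), and for Clock −0.27 (SE 0.17, adjusted p = 1.0, edgeR).

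Levels were then split into tubule nuclei, in which the transgenes act by design, and vascular, stromal and immune nuclei. Deletion was not measured by class here. In the tubule, Arntl averaged 26.0 ± 4.82 CPM in Ctrl at ZT4, 183 ± 4.11 CPM in Ctrl at ZT16, 295 ± 69.9 CPM in cKOt at ZT4, with 339 ± 22.8 CPM in cKOt at ZT16 (mean ± SD, n = 2). In the other nuclei its means were 74.9 ± 1.33, 89.5 ± 12.1, 102 ± 32.1 and 103 ± 0.824 CPM in the same order. The genotype effect on Arntl at ZT4 was larger in tubule than in other nuclei by 3.09 on the log2 scale (SE 0.14, adjusted p = 3.09e-06, edgeR with the library as block), and 0.238% of 15969 genes were called in this test. The Ctrl time effect on Arntl was larger in the tubule by 2.58 (SE 0.14, adjusted p = 2.09e-05, edgeR), where 0.175% of genes were called. At ZT16 the genotype effect differed by 0.67 (SE 0.14, adjusted p = 0.185, edgeR), with 0.119% of genes called.

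Npas2 in the tubule averaged 24.3 ± 5.38 CPM in Ctrl at ZT4, 152 ± 3.59 CPM in Ctrl at ZT16, 559 ± 46.2 CPM in cKOt at ZT4, with 575 ± 15.4 CPM in cKOt at ZT16. In the other nuclei it averaged 49.0 ± 5.25, 26.0 ± 10.0, 83.1 ± 25.3 and 55.2 ± 2.00 CPM. In this sum its Ctrl libraries at ZT4 lay above those at ZT16, but the class means went different ways. Ctrl means went from 121 to 42.4 CPM in the mesangial and pericyte class and from 93.3 to 59.5 CPM in smooth muscle and juxtaglomerular cells. They went from 2.65 to 14.5 CPM in vascular, 6.37 to 21.2 CPM in myeloid and 20.8 to 62.3 CPM in T and NK cells. Counts were few. Vascular cells had 8 and 8 counts at ZT4, myeloid cells 0 and 8 then 8 and 10, and T and NK cells 0 and 6 then 5 and 11. Smooth muscle and juxtaglomerular cells had 14 and 14 then 6 and 12 counts. Transcripts of the proximal tubule in vascular, myeloid and T and NK nuclei are described further on. B cells had at most 1 Npas2 count in a Ctrl library. The Ctrl time effect on Npas2 was larger in the tubule by 3.60 (SE 0.24, adjusted p = 8.53e-05) and the genotype effect at ZT4 by 3.8 (SE 0.23, adjusted p = 2.05e-05), both by edgeR. At ZT16 the genotype effect on Npas2 differed by 0.79 (SE 0.24, adjusted p = 0.488, edgeR). Clock was 164 to 249 CPM in the tubule means and 178 to 202 CPM in the means of the other nuclei, and its differences of 0.42, 0.13 and 0.29 had adjusted p of 0.269, 0.936 and 0.464 (edgeR; genotype at ZT4, genotype at ZT16 and time in Ctrl).

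**Figure D2:**
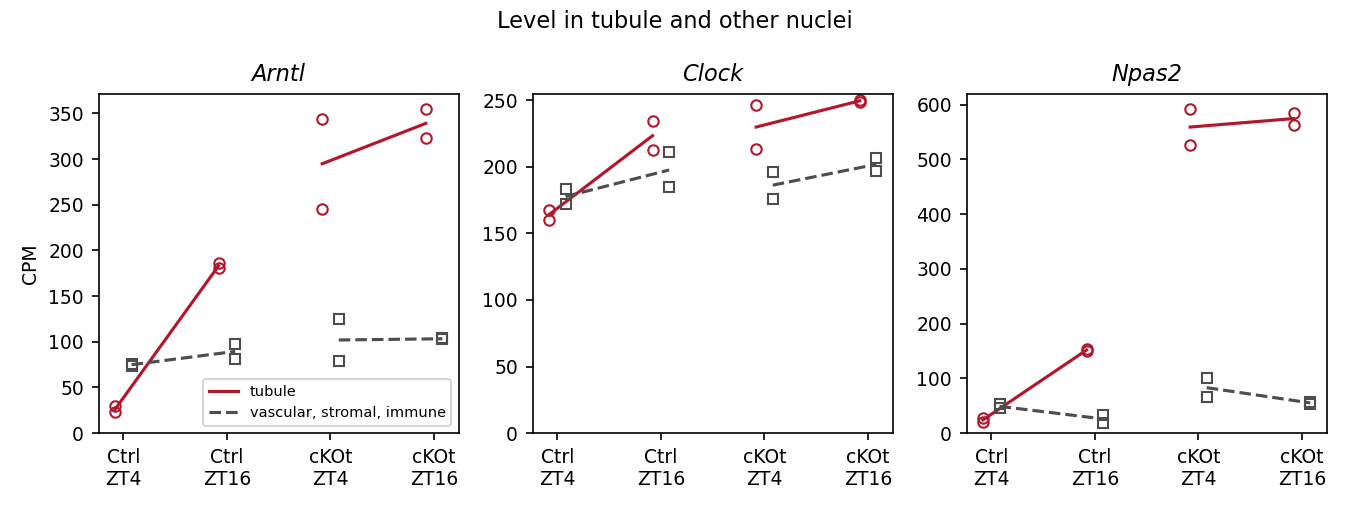
CPM of Arntl, Clock and Npas2 in tubule nuclei (circles, solid lines) and in vascular, stromal and immune nuclei (squares, dashed lines). Each symbol is a library and lines join group means within a genotype; the tubule lines of Arntl and Npas2 climb in Ctrl and stay high in cKOt, and the group means of both genes in the other nuclei stay at or below 103 CPM.

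The share of a gene's UMIs that came from each compartment moved accordingly. In Ctrl at ZT4, proximal nuclei (convoluted, PCT, and straight, PST) gave 19.7% of Arntl UMIs and 36.6% of Npas2 UMIs on average. In Ctrl at ZT16 they gave 49.8% and 72.3%, against 53.8% and 67.3% for cKOt at ZT4 and 53.8% and 70.0% for cKOt at ZT16. Vascular, stromal and immune nuclei gave 40.8% of Arntl UMIs in Ctrl at ZT4 and 6.56% in cKOt at ZT4. A sum over all nuclei of Arntl thus weighs different cells in different groups. In bulk sums fewer nuclei of a class and fewer transcripts per nucleus cannot be told apart, and with class shares held fixed Arntl's Ctrl time effect was 2.22 and its adjusted p 0.000975 (edgeR).

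Within classes, Arntl was tested in 19 classes, since B cells (BC) did not pass the filter on low counts, which asked for at least 5 counts in both libraries of a group. From ZT4 to ZT16 in Ctrl it rose in 9 of 19: PCT, PST, thin descending limb (thinDL), thick ascending limb (TAL), macula densa (MD), early distal convoluted tubule (DCT1), cortical collecting duct (CCD), type A intercalated cells (aIC) and vascular cells (Vasc). Over all classes, 0.308% of 195352 gene-by-class tests were called in this comparison. Without Ctrl ZT4 replicate 2 the number for Arntl was 5, and the PST call was lost without any of the other Ctrl libraries (edgeR adjusted p from 0.0528 to 0.0709) and with 50 principal components. In cKOt against Ctrl at ZT4 Arntl was higher in 10 of 19 classes, with 0.255% of tests called as background, and at ZT16 in 4 of 19, aIC, type B intercalated cells (bIC), DCT1 and cluster 11, with 0.138% called. All of the 10 and of the 4 were tubule classes.

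Apart from MD, the widest Ctrl swings of Arntl were in PCT, TAL, thinDL and aIC. In PCT, the segment that reclaims most filtered solute, it had 10.6 and 11.2 CPM at ZT4, then 211 and 241 CPM at ZT16 in Ctrl, and 301 and 212 then 332 and 297 CPM in cKOt. The Ctrl rise was 4.35 (SE 0.23, adjusted p = 6.44e-05, edgeR). In TAL, which reabsorbs salt without water, Arntl had 10.6 and 8.01 CPM at ZT4, then 207 and 201 CPM at ZT16 in Ctrl, against 357 and 266 then 339 and 322 CPM in cKOt. The Ctrl rise in TAL was 4.48 (SE 0.20, adjusted p = 1.11e-08, edgeR), and all cKOt values lay above those of Ctrl at ZT16.

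In aIC, which secrete acid, Arntl had 9.35 and 12.4 CPM at ZT4, then 170 and 176 CPM at ZT16 in Ctrl, and 345 and 321 then 401 and 397 CPM in cKOt. The difference of time effects, cKOt minus Ctrl, was called for Arntl in 4 of 19 classes, all lower: aIC (−3.67), PCT (−4.06), TAL (−4.40) and thinDL (−4.88), where 0.0256% of tests were called. The class named thinDL holds 427 nuclei. Clusters 16 and 23, of 1994 and 829 nuclei, also scored highest for thinDL markers. They had 2 of 5 of these markers up, stayed unnamed and are not in the class. In the thinDL, a water-permeable limb, Ctrl ZT4 rested on 1 and 2 counts of Arntl. Over the group the ratio of Ctrl ZT16 to ZT4 there was 28.1, with a counting interval (exact, 95%) of 9.41 to 138.

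In bIC and cluster 11, Arntl had no call for time in Ctrl. In bIC, which secrete bicarbonate, Arntl had 89.0 and 97.6 CPM at ZT4, then 116 and 166 CPM at ZT16 in Ctrl (log2 0.57, SE 0.23, adjusted p = 0.891, edgeR), against 315 to 341 CPM in the 4 cKOt libraries. In cluster 11 Arntl had 104 and 41.3 CPM at ZT4, then 98.7 and 119 CPM at ZT16 in Ctrl, and 316 to 411 CPM in cKOt. Both had a call for genotype at either time, but that of bIC at ZT16 was lost without any 1 of the 4 ZT16 libraries (edgeR adjusted p from 0.0658 to 0.45). Whether the time effect on Arntl differed between classes was not tested.

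In MD, the sensor cells at the vascular pole of the glomerulus, Arntl was low at ZT4 and high at ZT16 in both genotypes. No UMI of Arntl was found in 43 MD nuclei of Ctrl at ZT4, 11 and 32 from the 2 libraries. By counting alone this allows a share of up to 6.98% of nuclei with a UMI, a limit that leaves out the spread between mice. At ZT16 Arntl had 261 and 174 CPM in Ctrl. Against a floor of 3 counts over the group, Arntl was at least 10.3-fold higher at ZT16. In cKOt the MD values were 18.05 and 25.5 CPM at ZT4, then 180 and 184 CPM at ZT16, a ratio over the group of 8.09 with a counting interval (exact, 95%) of 2.55 to 41.1 (edgeR adjusted p = 0.274). MD was the only tubule class in which the cKOt libraries at ZT4 lay below those of Ctrl at ZT16 for Arntl. It is also the smallest, with 11 to 32 nuclei per library, and the Ctrl call was lost without Ctrl ZT16 replicate 1 (edgeR adjusted p = 0.0745) or Ctrl ZT4 replicate 2 (0.244) and with DESeq2 (0.718).

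**Figure D3:**
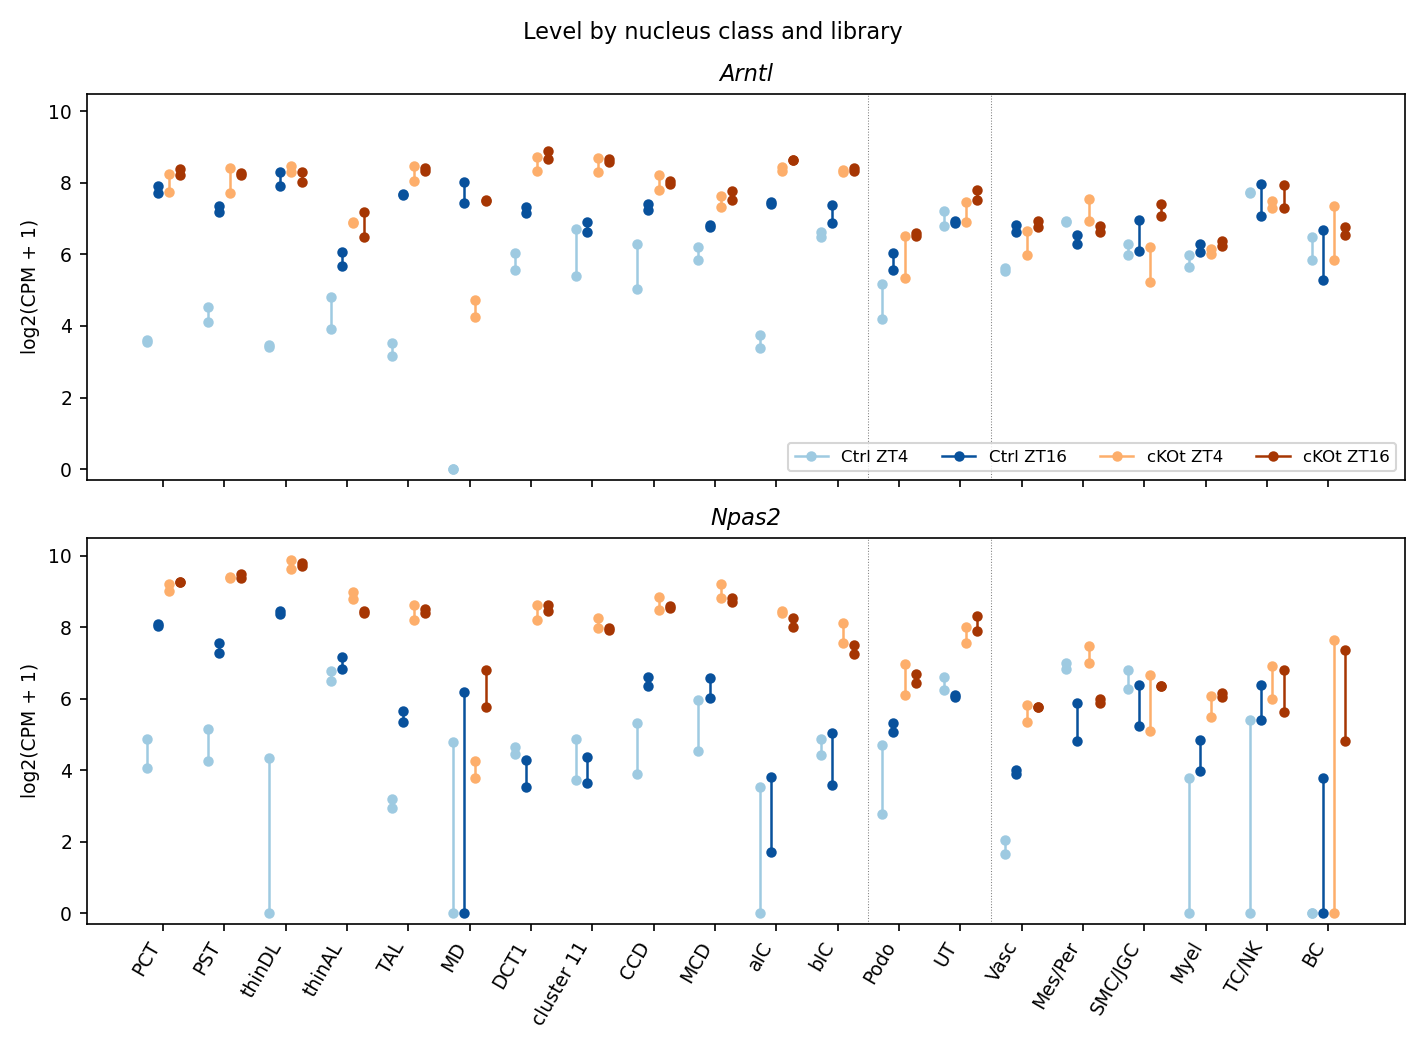
log2(CPM + 1) of Arntl and Npas2 by nucleus class, each point a library and each line joining the 2 libraries of a group; dotted lines part tubule classes, podocytes (Podo) with urothelium (UT), and vascular, stromal and immune classes. In tubule classes other than MD the orange and brown cKOt points of Npas2 lie above all blue Ctrl points.

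Npas2 was called in more classes than Arntl between genotypes at ZT16, 12 of 19, and in 12 of 19 at ZT4, all higher in cKOt. Of all gene-by-class tests, 0.138% were called at ZT16 and 0.255% at ZT4. From ZT4 to ZT16 in Ctrl Npas2 rose in 6 of 19, with 0.308% of tests called: PCT, PST, thinDL, TAL, CCD and Vasc. The Vasc values are set beside those of proximal transcripts further on. For tubule classes no such share was computed, and the part of proximal transcripts in their values was not tested. The 12 calls at ZT16 became 7 without Ctrl ZT16 replicate 1, Ctrl ZT16 replicate 2 or cKOt ZT16 replicate 2. In PCT Npas2 had 15.6 and 28.2 CPM at ZT4, then 273 and 263 CPM at ZT16 in Ctrl (log2 3.59, SE 0.26, adjusted p = 0.000372, edgeR), and 591 and 513 then 608 and 620 CPM in cKOt. In thinDL it had the highest mean of any class except in Ctrl at ZT4, with 0 and 19.4 CPM (0 and 4 counts) at ZT4, then 351 and 328 CPM at ZT16 in Ctrl, and 938 and 790 then 835 and 880 CPM in cKOt. All cKOt libraries lay above all Ctrl libraries in both classes, but PCT was not among the 12 called at ZT16 (log2 1.19, SE 0.23, adjusted p = 0.109, edgeR).

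PST and the collecting duct had the same direction for both genes. In PST, the part of the proximal tubule that enters the outer medulla, Arntl had 16.4 and 21.9 CPM at ZT4, then 143 and 164 CPM at ZT16 in Ctrl, and 340 and 211 then 309 and 296 CPM in cKOt. Npas2 in PST had 18.2 and 34.8 then 153 and 188 CPM in Ctrl, and 658 to 719 CPM in the 4 cKOt libraries. The Ctrl rise of Npas2 in PST (2.67, SE 0.28, adjusted p = 0.0132, edgeR) was lost without either Ctrl ZT16 library (adjusted p of 0.069 and 0.101), and its call at ZT16 without any 1 of the 4 ZT16 libraries (0.0973 to 0.158). In CCD, where principal cells fine-tune sodium and water, Arntl had 77.5 and 31.6 then 170 and 151 CPM in Ctrl, against 223 to 297 CPM in cKOt. Npas2 in CCD had 38.8 and 13.9 then 95.6 and 81.0 CPM in Ctrl, against 356 to 459 CPM in cKOt. Without Ctrl ZT4 replicate 2, the lower library for both genes, the Ctrl change of Npas2 in CCD was 1.19 (adjusted p = 0.179, edgeR).

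In the medullary collecting duct (MCD), Npas2 had 22.2 and 61.2 CPM at ZT4, then 95.3 and 64.0 CPM at ZT16 in Ctrl, and 417 to 594 CPM in cKOt. The MCD call at ZT16 (2.49, SE 0.34, adjusted p = 0.0362, edgeR) was lost in 6 of 8 fits without 1 library and with a replicate block (0.0838). Arntl in MCD had 73.3 and 56.0 then 113 and 108 CPM in Ctrl and 159 to 217 CPM in cKOt, with no call. In thinAL Arntl had 27.3 and 14.1 then 50.1 and 65.6 CPM in Ctrl and 88.4 to 144 CPM in cKOt. In MD, Npas2 rested on at most 9 counts in any library, with no call. The cKOt libraries at ZT16 (53.9 and 110 CPM) lay above those of both genotypes at ZT4 (0 to 26.8 CPM) and overlapped with Ctrl at ZT16 (0 and 71.6 CPM), and the ratio of cKOt ZT16 to ZT4 was 5.20, with a counting interval of 1.21 to 46.9.

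In DCT1, cluster 11, aIC and bIC, Npas2 was low at both times in Ctrl. DCT1, the thiazide-sensitive segment, had 21.0 and 24.1 CPM of Npas2 at ZT4 and 10.7 and 18.4 CPM at ZT16 in Ctrl, against 394 and 291 then 396 and 351 CPM in cKOt. The Ctrl time effect was −0.64 (SE 0.33, adjusted p = 0.423), and the genotype effect was 3.92 at ZT4 (SE 0.24, adjusted p = 3.8e-09) and 4.69 at ZT16 (SE 0.26, adjusted p = 8.16e-10), all by edgeR. In aIC Npas2 had 0 and 10.7 CPM (0 and 6 counts) at ZT4, then 13.1 and 2.26 CPM (8 and 1 counts) at ZT16 in Ctrl. In cKOt it had 351 and 336 then 306 and 254 CPM. The genotype effect in aIC at ZT16 was 4.98 (SE 0.38, adjusted p = 2.88e-11, edgeR). It ran from 4.4 to 6.77 without 1 library. In cluster 11 Npas2 was at most 28.4 CPM in the 4 Ctrl libraries and 241 to 303 CPM in cKOt, and in bIC at most 32.1 CPM in Ctrl and 152 to 278 CPM in cKOt.

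In TAL, Npas2 rose from 8.19 and 6.67 CPM at ZT4 to 39.8 and 49.3 CPM at ZT16 in Ctrl, and had 394 and 294 then 362 and 339 CPM in cKOt. Its genotype effect at ZT16 was 2.99 (SE 0.17, adjusted p = 3.12e-07, edgeR), while that of Arntl in TAL was not called. In the thin ascending limb (thinAL), Npas2 was 89.8 and 108 CPM at ZT4, then 143 and 113 CPM at ZT16 in Ctrl, among the higher Ctrl ZT4 values, and 503 and 439 then 335 and 350 CPM in cKOt. The difference of time effects for Npas2 was called in CCD (−2.04), PCT (−3.44), TAL (−2.57) and thinDL (−4.59), all lower, and in 2 classes without Ctrl ZT16 replicate 1, cKOt ZT16 replicate 1 or cKOt ZT16 replicate 2. Of all gene-by-class tests, 0.0256% were called for this difference of time effects. Within cKOt, edgeR called the time effect in 0 of 19 classes for Arntl and for Npas2. An unadjusted p under 0.05 was found in 4 and 2 classes, and DESeq2 called 0 and 1. There edgeR called 0.0988% of all gene-by-class tests. The Npas2 call at ZT16 in PST was also lost with 50 principal components (edgeR adjusted p = 0.276), as was its Ctrl rise there (0.38).

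**Figure D4:**
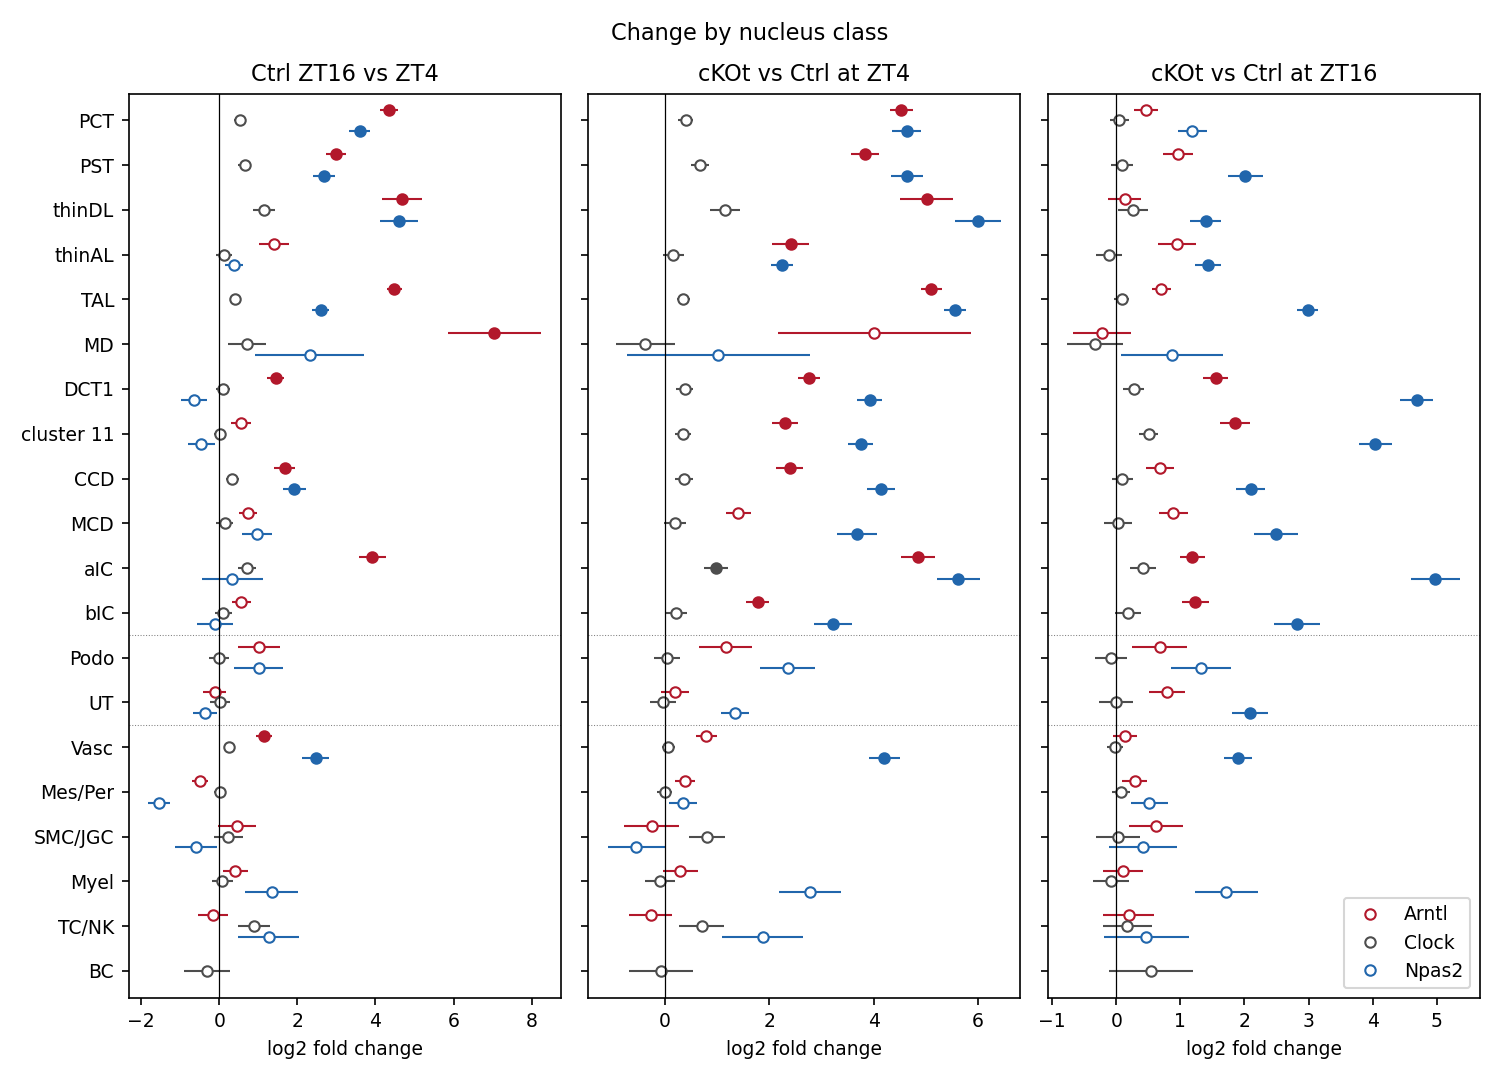
log2 fold changes of Arntl (red), Clock (grey) and Npas2 (blue) by class for time in Ctrl and for genotype at ZT4 and ZT16. Lines are 1 SE, filled points passed an adjusted p of 0.05 (edgeR) and open points did not; the Arntl point of MD in the left panel is a fit against a group at 0 counts and gives no bound. At ZT16 Npas2 points lie to the right of those of Arntl in the tubule classes, and Clock stays near 0.

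Clock passed in 1 class only, for genotype at ZT4, where 0.255% of all gene-by-class tests were called. Of all 195352 tests there, 11861 had an unadjusted p under 0.05 (edgeR), and Clock had such a p in 9 of 20 classes. In aIC it had 112 and 151 CPM in Ctrl at ZT4 and 227 and 301 CPM in cKOt at ZT4 (log2 0.98, SE 0.23, adjusted p = 0.0356, edgeR), and DESeq2 did not call it (0.122), nor did edgeR without 1 of 5 libraries (0.0532 to 0.436). In Ctrl between times edgeR called Clock in 0 of 20 classes, with 6 at an unadjusted p under 0.05 and 0 by DESeq2. Of all 195352 gene-by-class tests in this comparison, edgeR called 0.308%, and 15470 had an unadjusted p under 0.05. In thinDL, Clock had 173 and 160 CPM at ZT4, then 369 and 382 CPM at ZT16 in Ctrl, a change of 1.14 (SE 0.28, adjusted p = 0.107, edgeR), and 306 and 411 then 466 and 389 CPM in cKOt. In PCT it had 157 and 146 then 212 and 228 CPM in Ctrl, and 196 to 240 CPM in cKOt. Its median log2 change over 20 classes was 0.19 there and 0.27 for genotype at ZT4. The level of Clock ranged 2.30-fold over class means in Ctrl at ZT4, from 114 CPM in T and NK cells (TC/NK) to 262 CPM in bIC, and in 18 of 19 steps of that order the libraries of neighbouring classes overlapped. In Ctrl at ZT16 thinDL was highest, at 376 CPM, and stood apart from the next class.

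The order of classes turned with time for Arntl and Npas2 in Ctrl. For Arntl at ZT4 the highest mean was in TC/NK (212 CPM), followed by UT (129 CPM) and the class named for mesangial cells and pericytes (Mes/Per, 119 CPM). The lowest, apart from MD, were TAL and thinDL (9.29 and 9.94 CPM). At ZT16 thinDL (277 CPM), PCT (226 CPM) and MD (217 CPM) led, and their libraries overlapped with their neighbours in the order. For Npas2 at ZT4 Mes/Per was highest, at 121 CPM, apart from thinAL (99.1 CPM), and at ZT16 thinDL (340 CPM), PCT (268 CPM) and PST (170 CPM) led, each apart from the next. In cKOt at ZT4, DCT1 (372 CPM) had the highest mean of Arntl, with libraries that overlapped those of the next class, and thinDL (864 CPM) that of Npas2, apart from the next.

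In Mes/Per, Npas2 had 113 and 128 CPM at ZT4, then 27.2 and 57.7 CPM at ZT16 in Ctrl. In cKOt it had 177 and 127 CPM at ZT4, then 58.2 and 62.4 CPM at ZT16. In both genotypes the ZT4 libraries lay above the ZT16 libraries. The change missed the limit in edgeR, at −1.53 in Ctrl (SE 0.28, adjusted p = 0.0903) and −1.35 in cKOt (SE 0.28, adjusted p = 0.0691). Over 15 other settings the Ctrl value was −2.16 to −1.07 with adjusted p from 9.20e-08 to 0.41, below the limit in 3, DESeq2 among them (adjusted p = 0.000439). The cKOt value was −1.57 to −1.10 over these 15 settings. Among the settings that kept all libraries it passed with DESeq2 (adjusted p = 0.00143) and with edgeR without the filter on low counts (1.01e-06). The difference of time effects between genotypes was 0.18 (SE 0.39, adjusted p = 0.992, edgeR).

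The clusters that make up Mes/Per were led by genes outside its marker list. Ak5, Col14a1 and Fbln5 were among those of cluster 3, and Sfrp4, Clec3b and Dcn among those of cluster 33. The marker list itself holds Pdgfra and Col1a2 beside Pdgfrb. Whether these nuclei are mesangial cells, pericytes or other stromal cells was not tested. The clusters of Mes/Per were shared unevenly between groups. Cluster 3 held 57.8% of its nuclei in Ctrl at ZT4 and 50.7% at ZT16, against 37.3% and 63.5% in cKOt, and the part of these shares in the class values was not tested. Cluster 3 had 137 and 152 CPM of Npas2 at ZT4 and 20.7 and 29.8 CPM at ZT16 in Ctrl. In cKOt the same cluster had 156 and 146 CPM at ZT4, then 54.0 and 52.8 CPM at ZT16. The small cluster 33 had 315 and 396 CPM of Npas2 at ZT4 and 45.2 and 55.1 CPM at ZT16 in Ctrl. Cluster 12 had 64.3 and 64.4 CPM at ZT4, then 38.0 and 54.4 CPM at ZT16 in Ctrl. In cluster 21 the Ctrl libraries overlapped and their mean of Npas2 was higher at ZT16, with 75.5 and 12.7 CPM at ZT4, then 27.9 and 178 CPM at ZT16. In cKOt cluster 21 had 286 and 96.2 CPM at ZT4, then 38.2 and 51.6 CPM at ZT16, so that the direction of the class was missing in its Ctrl libraries and present in its cKOt libraries. Arntl in Mes/Per had 120 and 118 CPM at ZT4, then 77.7 and 92.9 CPM at ZT16 in Ctrl (log2 −0.49, SE 0.20, adjusted p = 0.588, edgeR). In Ctrl its clusters went different ways, with 131 and 125 then 45.1 and 59.0 CPM of Arntl in cluster 3 but 80.3 and 98.5 then 125 and 126 CPM in cluster 12. In cluster 21 Arntl had 161 and 139 then 150.1 and 175 CPM, and in cluster 33 at most 8 counts in a Ctrl library.

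In Vasc, both genes were lower at ZT4 than at ZT16 in Ctrl. Arntl had 48.2 and 45.1 CPM at ZT4, then 97.4 and 112 CPM at ZT16 in Ctrl (log2 1.15, SE 0.20, adjusted p = 0.0222, edgeR), and the call was lost without any 1 of the 4 Ctrl libraries, with adjusted p from 0.0839 to 0.194. In cKOt it had 100 and 62.3 CPM at ZT4, then 121 and 108 CPM at ZT16, with no call between genotypes. Npas2 in Vasc had 3.16 and 2.13 CPM at ZT4, then 13.9 and 15.0 CPM at ZT16 in Ctrl, and 39.8 to 56.2 CPM in the 4 cKOt libraries. Npas2 was called for time in Ctrl (log2 2.47, SE 0.34, adjusted p = 0.0059) and for genotype at ZT4 (4.20, SE 0.30, adjusted p = 2.81e-05) and at ZT16 (1.90, SE 0.22, adjusted p = 0.0019), all by edgeR. Without Ctrl ZT4 replicate 2 the adjusted p for time was 0.103 and without Ctrl ZT16 replicate 2 it was 0.0529, and at ZT16 it was 0.0591 without Ctrl ZT16 replicate 1 and 0.0541 without cKOt ZT16 replicate 2.

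Proximal transcripts were present in Vasc nuclei. All 12 PCT and PST markers had UMIs in Vasc in every library, and their summed level was 10.2% to 13.1% of that in PCT and PST nuclei of the same library. The Npas2 level in Vasc was 6.38% to 8.85% of the proximal level in 7 libraries and 18.2% in 1 Ctrl ZT4 library with 8 Npas2 counts in Vasc. In 7 of 8 libraries Npas2 in Vasc thus lay below the summed share of the proximal markers there, and in the other library above it. Arntl in Vasc was 30.1% to 346% of the proximal level. In Mes/Per the markers were at 9.53% to 13.5%, and Npas2 at ZT4 in Ctrl was at 643% and 395%. At ZT16 in Ctrl Npas2 in Mes/Per was at 12.6% and 28.1%, beside 9.53% and 12.5% for the markers in the same libraries. At ZT4 in cKOt it was at 27.5% and 22.3%, beside 13.5% and 10.3%. At ZT16 in cKOt it was at 8.97% and 9.51%, below the summed share of the markers in that group (11.3% to 11.9%). These values lay within the range of single markers there (7.16% to 30.9%). In myeloid cells of Ctrl at ZT16 Npas2 was at 6.89% and 13.3%, beside 12.5% and 13.8% for the markers. In TC/NK of the same libraries it was at 18.7% and 38.1%, beside 12.5% and 12.7%. The part of proximal transcripts in the Arntl and Npas2 calls in Vasc was not tested. Nor was their part in the Npas2 changes in Mes/Per, myeloid cells and TC/NK.

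**Figure D5:**
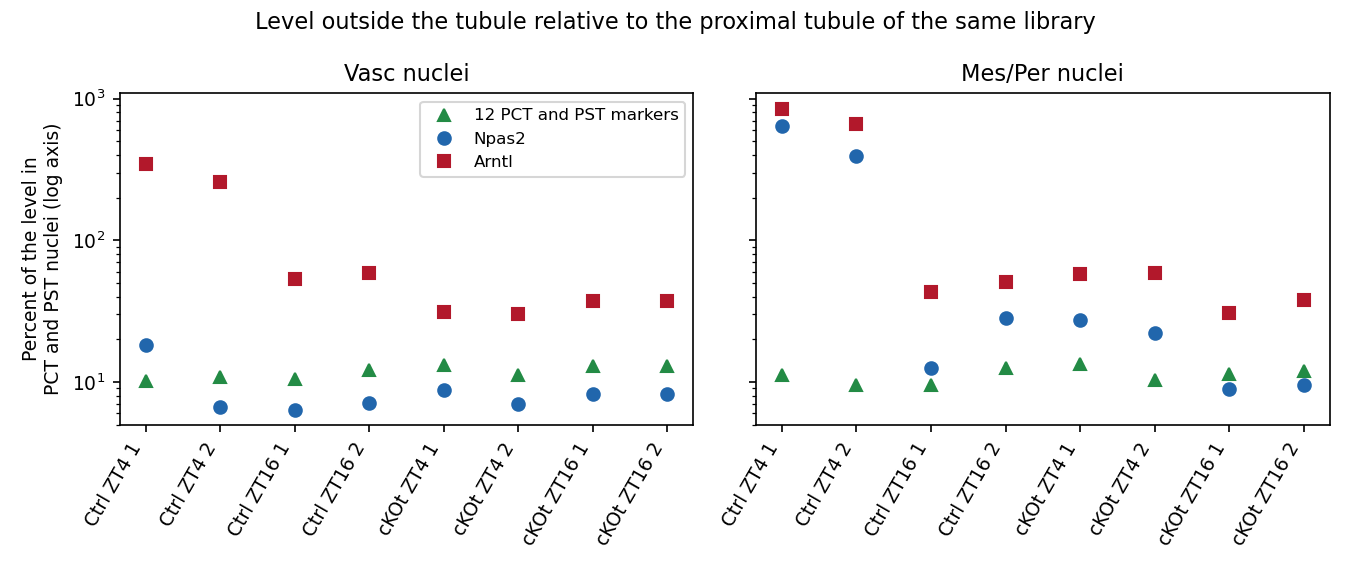
Level of Npas2 (circles), Arntl (squares) and the sum of 12 PCT and PST markers (triangles) in Vasc and Mes/Per nuclei, as percent of the level in PCT and PST nuclei of the same library, on a log axis. In Vasc the circles lie below the triangles in 7 of 8 libraries, while the squares lie above them in all 8; in Mes/Per at ZT4 in Ctrl both genes lie far above the triangles.

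Immune classes, podocytes and UT carried fewer counts. Arntl in TC/NK had 209 and 215 CPM at ZT4, then 134 and 249 CPM at ZT16 in Ctrl, from 16 to 33 counts per library, with no call. In myeloid cells (Myel) it had 49.4 to 62.5 CPM at ZT4 and 66.2 to 77.8 CPM at ZT16 in Ctrl and 64.1 to 82.1 CPM in cKOt. In UT, Npas2 had 75.0 and 95.7 CPM at ZT4, then 65.6 and 67.3 CPM at ZT16 in Ctrl, against 256 and 186 then 235 and 320 CPM in cKOt. The UT call at ZT16 (log2 2.09, SE 0.28, adjusted p = 0.0183, edgeR) was lost in 5 of the fits without 1 library, with adjusted p up to 0.212. In podocytes, Npas2 was 5.80 to 39.1 CPM in Ctrl and 68.2 to 125 CPM in cKOt, and Arntl 17.4 to 65.2 CPM in Ctrl and 39.2 to 95.9 CPM in cKOt, with no call for either. In cKOt podocytes Npas2 was at 10.6% and 21.1% of the proximal level at ZT4, then 15.3% and 13.4% at ZT16. The summed proximal markers there were at 13.2% and 12.2%, then 6.92% and 13.0%. The part of proximal transcripts in the podocyte values was not tested. In smooth muscle and juxtaglomerular cells (SMC/JGC), Arntl was 36.5 to 169 CPM and Npas2 33.5 to 110.0 CPM over the 8 libraries, with no call. In BC, Npas2 had 0 counts in both Ctrl ZT4 libraries and at most 11 elsewhere. The 11 were in a cKOt ZT4 library where the proximal markers in BC summed to 41.7% of their proximal level. Of these markers, Slc7a8 alone was at 172% of its proximal level in BC of cKOt at ZT4.

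Npas2 was also counted nucleus by nucleus. In PCT, 4.41% and 9.58% of nuclei had a Npas2 UMI in Ctrl at ZT4, 51.5% to 63.3% in Ctrl at ZT16 and 78.9% to 83.9% in the 4 cKOt libraries. With every nucleus thinned to 800 UMIs, the shares were 0.978% to 1.64%, 15.4% to 16.0% and 26.8% to 31.1%. In Vasc, where proximal transcripts were present, the unthinned shares were 0.359% to 0.458% in Ctrl at ZT4, 2.55% to 2.77% in Ctrl at ZT16 and 7.47% to 11.7% in cKOt. The median depth was 4806 UMIs in PCT and 2082 UMIs in Vasc. Arntl in PCT was found in 3.48% to 4.52% of nuclei in Ctrl at ZT4 and in 52.4% to 62.4% at ZT16.

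The clusters inside PCT and PST were shared unevenly between groups. Cluster 6 held 57.3% of PCT nuclei in Ctrl at ZT4 and cluster 5 held 40.4% in Ctrl at ZT16, whereas cluster 2 held 51.2% at ZT4 and 76.1% at ZT16 in cKOt. In cluster 2 Arntl, from 12 and 2 counts at ZT4, had 10.7 and 9.45 CPM at ZT4, then 219 and 249 CPM at ZT16 in Ctrl, and 203 to 338 CPM in cKOt. Cluster 5 had 13.2 and 16.0 then 187 and 226 CPM in Ctrl, and 214 to 316 CPM in cKOt. Cluster 6 had 8.80 and 9.22 then 259 and 275 CPM in Ctrl, and 223 to 372 CPM in cKOt. The part of the cluster shares in the PCT values was not tested. Cluster 10 held 58.8% and 60.8% of PST nuclei in Ctrl and 0.497% and 0.103% in cKOt, and cluster 4 held 67.1% and 69.0% in cKOt. In cluster 8, present at 29.8% to 32.4% of PST in every group, Npas2 had 8.50 and 22.9 CPM at ZT4, then 59.97 and 87.7 CPM at ZT16 in Ctrl, and 557 to 672 CPM in the 4 cKOt libraries. Arntl in cluster 8 had 24.1 and 29.3 then 104 and 121 CPM in Ctrl and 207 to 324 CPM in cKOt.

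The other genes of the loop were followed as a list of 17 clock genes, chosen for their known role. In all nuclei 2 of 17 rose from ZT4 to ZT16 in Ctrl, Cry1 (2.71) among them, and 3 fell, Dbp (−3.49), Nr1d1 (−4.16) and Nr1d2 (−1.88). Over all genes 0.141% were called, and the median of the list was −0.25 and that of all genes tested 0.00. For cKOt against Ctrl at ZT4, Cry1 (3.0) and Nfil3 (3.21) were among those higher and Ciart (−2.46), Dbp (−2.45), Nr1d2 (−1.79) and Per3 (−1.63) were lower, with 0.44% of all genes called and a list median of −0.31 beside 0.00 for all genes. At ZT16 only Nr1d2 was called (−1.34), where 0.171% of all genes were, with medians of −0.27 and 0.00.

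Cry1, which encodes an inhibitor of the activators, is known to be repressed by NR1D receptors. Dbp encodes an output factor driven through E-boxes. Within cKOt edgeR called 0 of the 17 genes between times, with 4 at an unadjusted p under 0.05 and 3 called by DESeq2. Of all 16351 genes tested, edgeR called 0, 1351 had such a p and DESeq2 called 166. The largest absolute log2 change in the list there was 3.36, and the smallest unadjusted p was 4.76e-06 (edgeR). For the difference of time effects Cry1 alone passed (−2.45, adjusted p = 0.0436, edgeR). Of the 13 relatives of Arntl, Clock and Npas2 in the bHLH-PAS family, such as Arntl2, Arnt and Hif1a, 12 were tested in all nuclei. In any of the 5 comparisons edgeR called 0 of the 12, with 1 or 2 at an unadjusted p under 0.05, and DESeq2 called at most 1. Of all 16351 genes tested, edgeR called 0 to 72, 711 to 1616 had such a p, and DESeq2 called 54 to 349. In the 260 gene-by-class tests of the clock list, 31 were higher and 28 lower for time in Ctrl, 27 and 33 for genotype at ZT4, 0 and 10 for genotype at ZT16, 4 and 11 for time in cKOt, and 0 and 15 for the difference of time effects. Of all gene-by-class tests, in either direction, 0.308%, 0.255%, 0.138%, 0.0988% and 0.0256% were called in these comparisons in turn. Over 156 class tests of the bHLH-PAS list in each comparison, 1 passed, Ahrr, a repressor of the dioxin receptor, in Mes/Per within cKOt (−2.55, adjusted p = 0.0239, edgeR). Ahrr led the genes of cluster 21, which held 18.3% of Mes/Per nuclei in cKOt at ZT4 and 7.54% at ZT16, and the part of this shift in the Ahrr value was not tested.

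The genes most like Arntl, Clock and Npas2 were ranked over 160 points, 20 classes in 8 libraries, by Pearson's r of log2 CPM centred within class, among 2732 genes tested in all classes. The points share libraries and groups, so r is a description. For Arntl the closest were Rhobtb1 (r = 0.79), Ypel2 (0.68), Wsb1 (0.64), Eif4g3 (0.61) and Clock (0.60), and the most opposite were Nr1d2 (−0.82), Tef (−0.71), Cyp4b1 (−0.54), Sord (−0.48) and Rsrp1 (−0.48). For Npas2 the closest were Rhobtb1 (0.77), Ypel2 (0.70), Wsb1 (0.69), Arrdc3 (0.63) and Pter (0.61), and the most opposite Nr1d2 (−0.72), Tef (−0.67), Cyp4b1 (−0.61), Ass1 (−0.56) and Sord (−0.51). Arntl and Npas2 had r = 0.81 with each other, Arntl and Clock 0.60, and Clock and Npas2 0.55.

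Arntl and Npas2 were tested in 19 of the 20 classes and so were not among the ranked genes. Of those, the closest to Clock were Vps37a, Rhobtb1, Ncor1, Zfp36l1 and Dazap1, at r from 0.48 to 0.50, and the most opposite Nr1d2, Tef, Maml2, Sord and Pura, at −0.52 to −0.38. Ranked instead by class means of the Ctrl libraries, over 20 classes, Arntl was closest to Tra2b (0.76), Thrap3 (0.75), Agfg1 (0.74), Tcf12 (0.72) and Cul3 (0.72). Clock was closest to Nbea (0.69), Zmym4 (0.68), Fam135a (0.62), Tbc1d4 (0.57) and Mnat1 (0.56), and Npas2 to Arhgap32 (0.69), Fbxw8 (0.67), Pdzrn3 (0.66), Ubr4 (0.66) and Arhgap10 (0.66).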

How the data were processed

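Single-nucleus RNA-seq libraries of DAPI-sorted kidney nuclei were made with the 10x Genomics 3′ v3.1 chemistry. The authors aligned reads and counted UMIs with Cell Ranger 7.1.0, and the deposited values are raw counts per gene and barcode, with no normalization. The mm10 reference is named in the study's methods and GRCm39 in the submitters' processing notes, and none of the sources used here states whether introns or strand were used in counting. The study's methods give 2 mice per group, as analysed here, while the design text gives a higher number. Gene positions are from GENCODE on GRCm39, upstream sequences from RefSeq on GRCm38.p6, and the counts carry no coordinates.

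Nuclei entered with a minimum of 500 genes and 800 UMIs and a mitochondrial share no higher than 2%. Protein-coding genes held 82.8% of UMIs. Nuclei were clustered on 2000 variable genes, 1000 principal components and 20 neighbours at a Leiden resolution of 2.2 (scanpy 1.11.5, leidenalg 0.10.2), and clusters were named where at least 3 markers of a list were 2-fold higher and in at least 10% of nuclei, with a mean z of at least 0.9. Scrublet marked 4367 nuclei (5.37%) as doublets. They were kept, and leaving them out was an alternative. Counts were summed per library and class, genes with at least 5 counts in both libraries of a group were tested with edgeR 4.0.16 (TMM, quasi-likelihood) in R 4.3.3 over all 4 groups, and p-values were adjusted by Benjamini-Hochberg per comparison and class. DESeq2 1.42.0, other scaling, no filter, all genes, 50 principal components, all barcodes, fixed class shares, a replicate block and leaving out each library were the alternatives. Scripts were tested on simulated data. Counting intervals are exact at 95% and, like floors of 3 counts, cover counting error only.

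Genes named for their results are Arntl, Clock and Npas2, members of the clock and bHLH-PAS lists that passed, and the 5 genes most alike or most opposite by correlation. Other genes are named as background, as examples of a list, for an overlap in position, as markers or as leading genes of clusters. The result of 1 gene of the clock list is not reported here. Members and lists were chosen with earlier results of these data known.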

Additional observations from a re-analysis of the deposited data

Results flagged for a closer look

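Effects that differed between groups by a direct test (edgeR, adjusted p under 0.05) are listed here. The effect of time, as the log2 change in cKOt minus that in Ctrl, was lower for Npas2 in all nuclei (−2.09), a call lost in each of the 8 fits without 1 library (edgeR adjusted p from 0.062 to 0.217) and with a replicate block (0.0953). By class it was lower for Arntl in aIC (−3.67), PCT (−4.06), TAL (−4.40) and thinDL (−4.88), and for Npas2 in CCD (−2.04), PCT (−3.44), TAL (−2.57) and thinDL (−4.59). In thinDL the Ctrl ZT4 libraries held 3 Arntl counts and 4 Npas2 counts, so the fitted values there rest on few counts.

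Tubule nuclei differed from vascular, stromal and immune nuclei in the log2 effect of genotype at ZT4, by 3.8 for Npas2 and 3.09 for Arntl, and in the effect of time in Ctrl, by 3.60 for Npas2 and 2.58 for Arntl. Proximal markers had UMIs in the other nuclei. Their summed level was 10.2% to 13.1% of the proximal level in Vasc and 9.53% to 13.5% in Mes/Per. It was up to 16.3% in SMC/JGC, 17.1% in Myel, 14.8% in TC/NK and 41.7% in BC. Single markers reached 172% for Slc7a8 in BC (cKOt ZT4), 56.7% for Adra1a in SMC/JGC (Ctrl ZT4) and 48.6% for Slc7a8 in Myel (Ctrl ZT16). Whether these classes express some of the markers themselves was not tested. The part of proximal transcripts in the differences between tubule and other nuclei was not tested either.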

How the results depend on the processing

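No called result reversed its direction under any alternative run. The uncalled time effects within cKOt in all nuclei did, running without 1 library from −0.07 to 0.49 for Arntl, from −0.00 to 0.23 for Clock and from −0.10 to 0.14 for Npas2. All 3 turned without cKOt ZT4 replicate 2, and Npas2 also without cKOt ZT16 replicate 1 (−0.04) and with fixed class shares (−0.00). The tests between tubule and other nuclei kept their side of the threshold under all of theirs. In all nuclei, the Arntl difference between genotypes at ZT16 was called by DESeq2 (0.84, adjusted p = 0.00286), and the difference of its time effects was called without the filter on low counts (−1.95, adjusted p = 0.0198, edgeR), by DESeq2 (−1.96) and with fixed class shares (−2.09). Deviations of same-numbered libraries had r of 0.279 between genotypes at ZT4 and 0.286 between genotypes at ZT16. For the other pairs of groups r was −0.190 to 0.127. The labels name no pairing or batch, and whether libraries were paired within a time point was not tested. With a replicate block, which used 1 term for both times, the Npas2 difference of time effects was −2.09 with an edgeR adjusted p of 0.0953. With 50 principal components Arntl was called higher in 7 classes at ZT16 and lower in 7 for the difference of time effects, also 7 without the filter, and Clock in 1 class for time in Ctrl. DESeq2 called Clock in 0 classes at ZT4. Without the filter or with DESeq2, Npas2 was called lower with time in 1 class in Ctrl and in 1 class in cKOt. Leaving out 1 library, the Arntl time effect in Ctrl was 2.03 to 2.24 (not called without Ctrl ZT4 replicate 2), its difference of time effects −2.21 to −1.65 (called without cKOt ZT4 replicate 2) and that of Npas2 −2.31 to −1.92. The number of classes called then ran from 5 to 9 for Arntl over time in Ctrl, 0 to 1 for Clock at ZT4, 0 to 1 for Npas2 lower with time in Ctrl and also in cKOt, 7 to 13 for Npas2 at ZT16, and 2 to 4 for its difference of time effects. The cause of these shifts was not tested. Of single-class results, 11 of 426 lost their call under other settings and 58 of 496 without 1 library. DESeq2 and the block were not run between tubule and other nuclei. Classes with few nuclei, MD (179 nuclei) above all, limit what could be detected.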
